A study of Homo sapiens with 12 samples.

Results

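Collagens are the main fibrous proteins of the extracellular matrix, and their transcripts were followed here across 2 glioblastoma cell lines grown apart and together. The family was taken as a list of 35 collagen genes, and its members were the array probes annotated to only 1 of them, by symbol or older alias. This gave 57 probes for 34 genes, of 48803 probes and 18665 named genes on the array, while no probe was named for COL17A1. U373 and U87MG are established human glioblastoma lines that grow attached to plastic. RNA of 12 cultures was hybridised to Illumina HumanWG-6 v3 BeadChips, one array per culture, with 3 biological replicates of each of 4 groups. For U373 co-culture and U87MG co-culture, cells attached for 3 h and the lines were then kept for 72 h in the same 3 ml of medium. A porous membrane (0.4 µm) that cells do not cross lay between them. U373 monoculture and U87MG monoculture lacked the other line. U373 cells were always seeded in the insert and U87MG cells in the bottom well, so line and chamber cannot be told apart, and no normal astrocytes are among these arrays. Each line stands for 1 established cell stock, and p-values measure the spread between cultures of that stock.

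A collagen is built from 3 α chains wound into a triple helix, and each chain has its own gene. Fibrillar collagens (types I, II, III, V, XI, XXIV and XXVII) form the cable-like fibrils of connective tissue. Type IV forms the sheet of basement membranes, types XV and XVIII sit beside it, and type VII anchors it to the tissue below. The remaining types form beaded filaments, short-chain networks, or molecules that decorate fibrils (fibril-associated collagens, or FACITs), and a few span the cell membrane. In the brain, collagens are made mainly by cells of the vessels and the meninges.

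The values are levels on a log2 scale, after variance stabilisation normalisation by the authors and averaging over the probes of a gene. Near background this scale is compressed, which understates the fold changes of dim genes, and levels are compared between arrays only, never between probes. The background limit of an array was the mode of its values plus 3 SD and lay between 4.34 and 5.78. It was highest on U373 monoculture replicate 2, where 23.5% of probes exceeded it. The correlation of arrays was taken over the 10572 genes with a probe above the limit on at least 3 arrays. It was 0.9804 to 0.9919 between arrays of a group and 0.8004 to 0.8245 between lines. Of the astroglial and glioma markers, 6 of 9 exceeded the limit on every U373 array and 4 of 9 on every U87MG array. GFAP and SOX2 were at background on every U87MG array. Of 9 fibroblast markers other than collagens, 8 exceeded background on every U373 array and 5 on every U87MG array, and their mean level was 7.74 to 8.01 across the U373 arrays and 5.35 to 5.72 across the U87MG arrays.

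Many collagen genes were expressed in both lines. In 13 of the 34 genes, at least 1 probe was above background on all 12 arrays. They comprised COL1A1, COL1A2, COL5A1 and COL5A2 of the fibrillar types, COL4A6 and COL7A1 of the basement membrane, all 3 type VI genes, COL8A1, COL8A2, COL12A1 and COL13A1. A further 5 genes exceeded background on each of the 6 U373 arrays and on no U87MG array, namely COL3A1, COL4A1, COL5A3, COL9A2 and COL18A1. At background on all 12 arrays were 9 genes (COL2A1, COL4A3, COL4A4, COL9A1, COL9A3, COL10A1, COL11A2, COL21A1 and COL25A1), which include the main collagen of cartilage and the collagen of the growth plate. The other 25 genes were above background on at least 3 arrays and were tested. The plot of collagen levels by array shows these 25 genes.

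**Figure D1:**
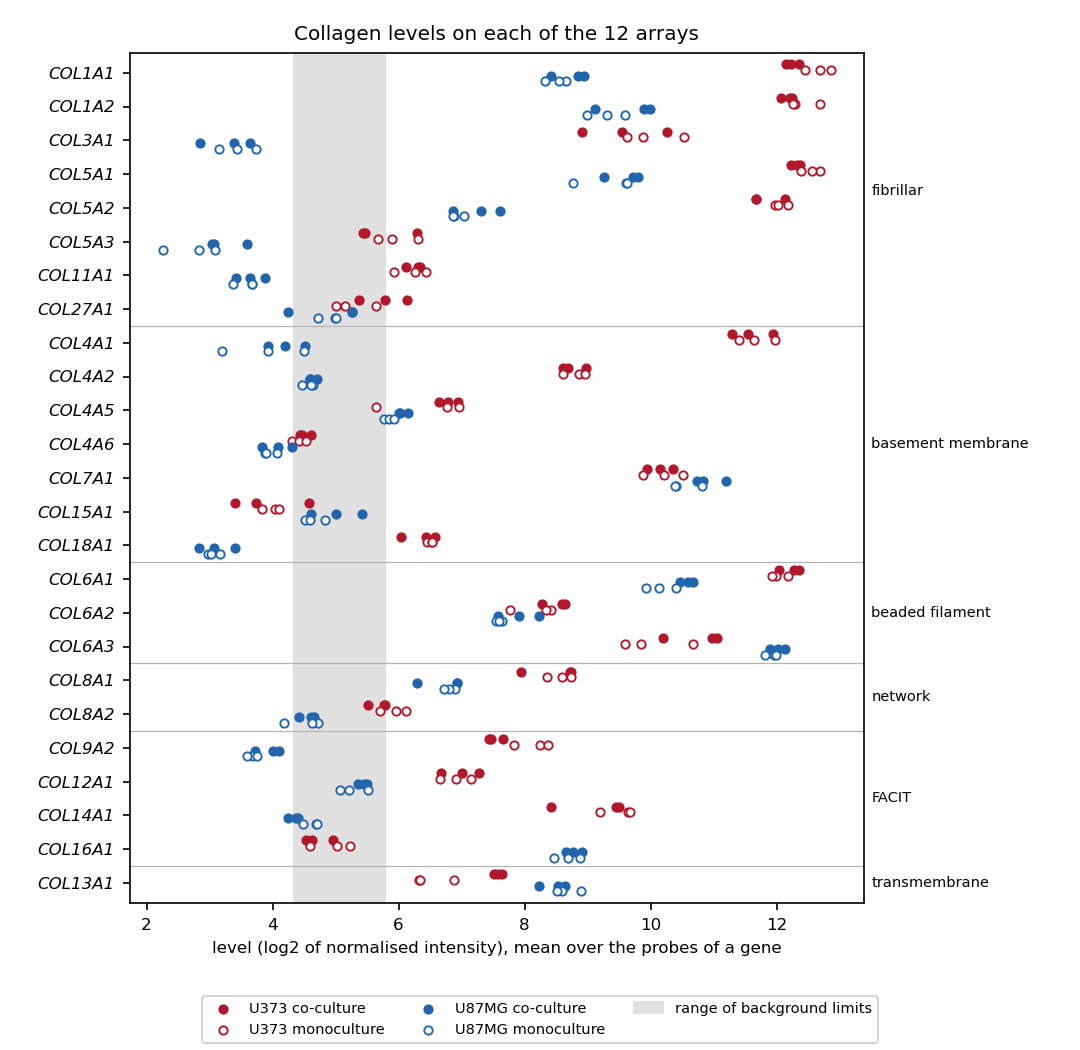
Level of each of the 25 tested collagen genes on each of the 12 arrays (log2 of normalised intensity, mean over the probes of a gene). Each point is 1 array, filled for co-culture and open for monoculture, red for U373 and blue for U87MG, and the grey band spans the background limits of the arrays. In 16 genes all 6 U373 arrays lie above all 6 U87MG arrays, and in COL6A3, COL13A1 and COL16A1 they all lie below. The 16 include all 8 genes that were above background on at least 3 arrays of U373 only. COL16A1 was so in U87MG only.

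Type IV collagen genes lie in pairs that start back to back, so that each pair shares a short stretch of promoter DNA. The pairs are shown for this layout, and whether the members of a pair are controlled together was not tested. COL4A1 and COL4A2 were bright in U373 and at or near background in U87MG. COL4A3 and COL4A4 were at background on all 12 arrays, among 9 such collagen genes. COL4A5 and COL4A6 were dim in both lines. The sequences are those of RefSeq on build GRCh38.p14, on the plus strand, from 5′ to 3′. They are all 126 bases between COL4A1 and COL4A2 (chr13:110307158-110307283), all 135 bases between COL4A4 and COL4A3 (chr2:227164489-227164623), and the 250 bases before COL4A5 (chrX:108439588-108439837), out of 379 between COL4A6 and COL4A5. The fourth is the stretch of 250 bases before COL13A1 (chr10:69801656-69801905), the single collagen gene that passed the test for an effect of co-culture. Capitals mark matches, on either strand, to the CCAAT box (CCAAT), the GC box (GGGCGG) or the TATA box (TATAAA).
COL4A1 and COL4A2: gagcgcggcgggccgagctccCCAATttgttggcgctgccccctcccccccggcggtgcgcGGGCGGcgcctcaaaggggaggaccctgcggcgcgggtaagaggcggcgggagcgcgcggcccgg
COL4A4 and COL4A3: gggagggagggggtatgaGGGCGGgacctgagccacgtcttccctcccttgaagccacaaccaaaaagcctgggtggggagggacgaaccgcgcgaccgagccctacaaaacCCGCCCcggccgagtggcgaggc
COL4A6 and COL4A5: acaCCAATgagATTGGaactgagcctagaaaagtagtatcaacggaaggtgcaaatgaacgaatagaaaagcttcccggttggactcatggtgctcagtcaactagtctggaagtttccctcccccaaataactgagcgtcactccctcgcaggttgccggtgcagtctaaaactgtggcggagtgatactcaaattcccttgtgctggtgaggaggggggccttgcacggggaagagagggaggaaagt
COL13A1: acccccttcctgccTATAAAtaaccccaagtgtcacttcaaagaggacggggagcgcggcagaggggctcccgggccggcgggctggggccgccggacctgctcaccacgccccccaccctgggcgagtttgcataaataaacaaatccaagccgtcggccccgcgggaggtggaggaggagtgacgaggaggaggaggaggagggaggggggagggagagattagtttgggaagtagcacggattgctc
The stretch between COL4A1 and COL4A2 held 1 CCAAT box and 1 GC box, letters that 21.1% and 34.6% of all 35116 RefSeq promoter windows hold in the same length. Its bases were 80.2% G or C, against a median of 60.3% over those windows. Between COL4A4 and COL4A3 lay 2 GC boxes and 68.1% G or C (35.5% of windows hold a GC box, median 60.0% G or C). Before COL4A5 there were 2 CCAAT boxes, which 32.0% of windows hold at least once, and 51.2% G or C against a median of 58.0%. The stretch before COL13A1 held 1 match to the TATA box, near the end farthest from the gene. Of all windows, 10.7% held such a match anywhere in the same length. None of these matches was tested as a site of binding.

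The first comparison was between the lines, U373 against U87MG, in each kind of culture. In monoculture, U373 cells had a higher level of 19 and a lower level of 4 of the 25 tested collagen genes, with limma and a threshold of 0.05 on the adjusted p. Of all 10572 tested genes, 27.8% were higher and 31.4% lower, 59.2% together. The median log2 fold change of the 25 collagen genes was 1.88, against -0.05 over all tested genes. In co-culture 20 were higher and 5 lower, against 25.5% and 31.9% of all tested genes (57.4% together), with a median of 1.75 against -0.07. Part of this count follows from the filter: 8 of the 25 genes passed it through the U373 arrays only and 2 through the U87MG arrays only. For such genes the filter fixed the direction, though not whether they passed the test. Among the 13 collagen genes above background on all 12 arrays, 10 were higher and 2 lower in U373 monoculture, against 27.2% and 28.0% of the 7547 genes of this kind. In co-culture 10 of them were higher and 3 lower, against 23.9% and 29.5%. All 6 U373 arrays lay above all 6 U87MG arrays in 16 of 25 genes, against 21.6% of all tested genes, and below them in 3, against 25.8%. The filter bears on these counts and on the medians too. The 16 include all 8 genes that passed it through U373 only, and the 3 include COL16A1, which passed it through U87MG only. In bulk RNA, fewer expressing cells and less RNA per cell cannot be told apart. Marker lists of other cell types also differed. In each kind of culture, 7 of 8 tested fibroblast markers, 5 of 6 astroglial and glioma markers and 2 of 3 epithelial markers were higher in U373. Of these, 2 fibroblast, 2 astroglial and 1 epithelial passed the filter through U373 only, which fixed their direction. Among markers that passed it through both lines, 5 of 6 fibroblast, 3 of 4 astroglial and 1 of 1 epithelial were higher. Of 4 endothelial markers, 2 were higher and 2 lower in monoculture, and 1 and 2 in co-culture. VWF and CDH5 passed the filter through U373 only and TEK through U87MG only. PECAM1, which passed it through both lines, was lower in each kind of culture. The 1 tested leukocyte marker was higher in both. The part of the marker differences in the collagen levels was not tested.

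**Figure D2:**
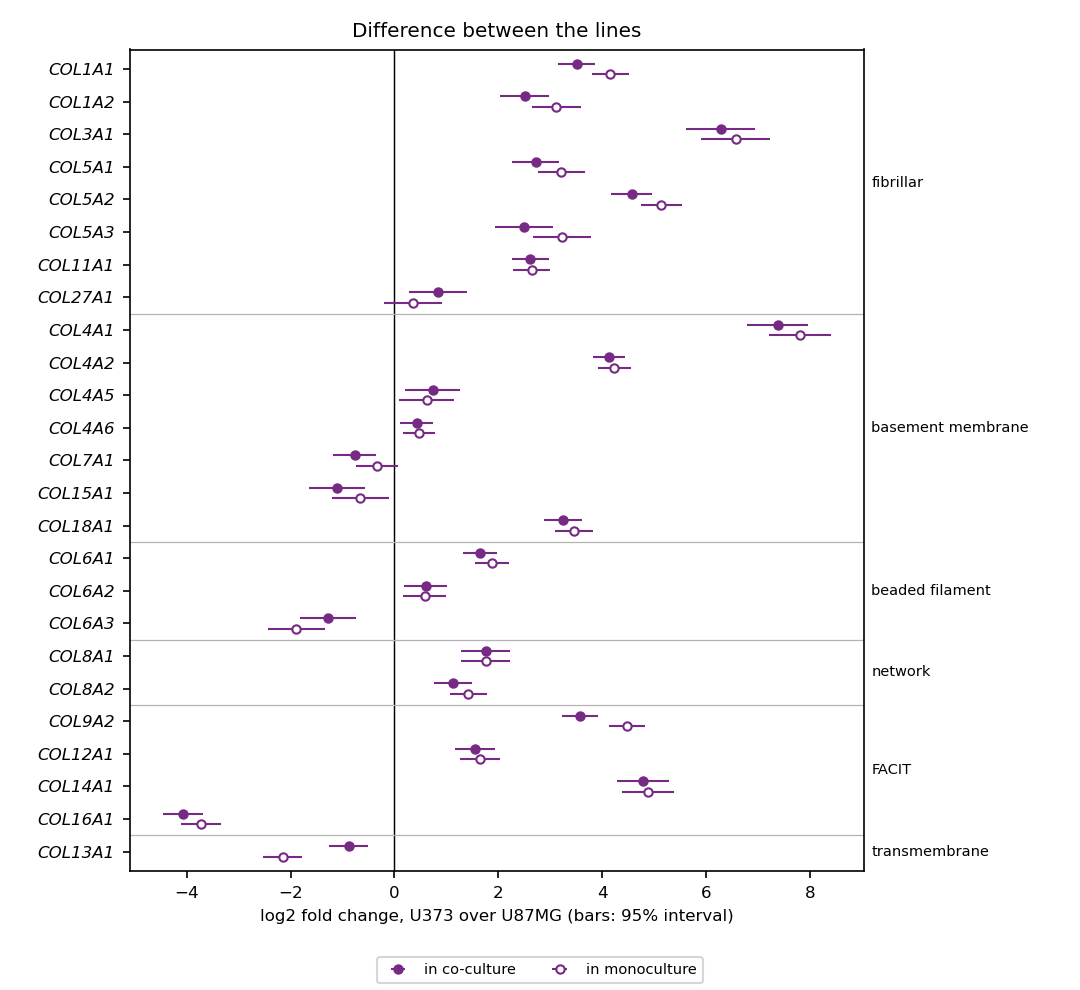
Log2 fold change of U373 over U87MG for the 25 tested collagen genes, in co-culture (filled) and in monoculture (open), with 95% intervals of limma's moderated test. Points right of 0 are higher in U373; COL4A1 lies farthest right and COL16A1 farthest left.

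All fibrillar collagens that passed were higher in U373. Of 10 listed fibrillar genes, 8 were tested, and 7 of these were higher in monoculture and all 8 in co-culture, with none lower, beside 27.8% and 25.5% of all tested genes higher. COL3A1, COL5A3 and COL11A1 passed the filter through the U373 arrays only, so their direction was fixed by it. Of the other 5 genes, 4 were higher in monoculture and 5 in co-culture. COL1A1, the α1 chain of type I collagen, the commonest collagen of skin, bone and scar, measured 12.45, 12.68 and 12.85 in U373 monoculture, against 8.66, 8.55 and 8.32 in U87MG monoculture. In co-culture it measured 12.15, 12.35 and 12.23 in U373, against 8.93, 8.85 and 8.42 in U87MG. No array of one line reached the range of the other. The log2 fold change was 4.16 in monoculture (SE 0.17, adjusted p = 1.19e-11), or 17.8-fold, and 3.51 in co-culture (adjusted p = 8.46e-11). Its partner COL1A2, the α2 chain of the same triple helix, was 12.28, 12.26 and 12.68 in U373 monoculture, against 9.59, 9.30 and 8.98 in U87MG monoculture. Both genes of type I collagen thus passed in the same direction, with a log2 fold change of 3.12 for COL1A2 in monoculture (SE 0.22, adjusted p = 8.36e-09) and of 2.51 in co-culture. Its 2 probes gave differences of 2.27 and 3.97 in monoculture.

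COL3A1, which forms the single chain of type III collagen of vessel walls and soft organs, was 9.88, 10.53 and 9.62 in U373 monoculture and at background on all 3 U87MG monoculture arrays. Its level was at least 35.6-fold higher in U373 in monoculture (adjusted p = 7.37e-11), and the bound was 30.8-fold in co-culture. These bounds set the U373 mean against the lowest signal above the background limit of each U87MG array. COL5A2 lies next to COL3A1 on chromosome 2, with 19151 bases between them, and encodes the α2 chain of type V collagen, which starts new fibrils. It measured 11.96, 12.19 and 12.02 in U373 monoculture, against 7.03, 6.88 and 6.86 in U87MG monoculture. In contrast to COL3A1 it was above background in both lines, and its log2 fold change was 5.13 (SE 0.19, adjusted p = 4.33e-12) in monoculture and 4.57 in co-culture.

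The other type V chains were also higher in U373. COL5A1 was 12.38, 12.69 and 12.56 in U373 monoculture, against 9.61, 9.62 and 8.77 in U87MG monoculture, a log2 fold change of 3.21 (SE 0.21, adjusted p = 3.82e-09). In co-culture the log2 fold change of COL5A1 was 2.72. COL5A3 was dim in U373 (5.90, 6.30 and 5.67 in monoculture) and at background in U87MG, so its level was at least 2.15-fold higher in U373 in either kind of culture. COL11A1, the α1 chain of type XI collagen, a minor partner of cartilage fibrils, has 4 probes, of which 2 were at background on every array. The brighter of the other probes averaged 10.58 ± 0.17 in U373 monoculture, with U87MG monoculture at background, at least 53.0-fold higher, and the fourth was at least 5.79-fold higher. Averaged over all 4 probes, COL11A1 was at least 2.56-fold higher in U373 monoculture. COL27A1 lay near the background limit in both lines. It was 5.37, 6.14 and 5.78 in U373 co-culture, against 5.26, 5.25 and 4.25 in U87MG co-culture, and passed there (log2 fold change 0.84, SE 0.26, adjusted p = 0.013) and not in monoculture (0.36, adjusted p = 0.255). That call was lost without U373 co-culture replicate 2 (0.0637) or U87MG co-culture replicate 3 (0.0795). Whether its fold change differed between the kinds of culture is given by the difference of the co-culture effects, which was 0.48 (SE 0.37, adjusted p = 0.900).

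Basement membrane collagens were split. Of 9 such genes 7 were tested, and 5 were higher and 1 lower in U373 monoculture, 5 and 2 in co-culture, beside 27.8% and 31.4% of all tested genes in monoculture. The filter fixed the direction of 4 of them, since COL4A1, COL4A2 and COL18A1 passed it through U373 only and COL15A1 through U87MG only. Of the other 3, COL4A5, COL4A6 and COL7A1, 2 were higher in monoculture, and 2 were higher and 1 lower in co-culture. COL4A1, whose α1 chain is the chief component of nearly every basement membrane, was 11.65, 11.98 and 11.41 in U373 monoculture and 11.54, 11.94 and 11.28 in U373 co-culture, and at background on all 6 U87MG arrays. It was at least 113-fold higher in U373 monoculture (adjusted p = 3.44e-12), and at least 125-fold in co-culture, the largest bounds of the 25 genes. COL4A2, which supplies the α2 chain of the same trimer, was 8.60, 8.86 and 8.96 in U373 monoculture, against 4.47, 4.64 and 4.61 in U87MG monoculture, all at background. Its level was at least 15.5-fold higher in U373 monoculture (adjusted p = 2.30e-12). In co-culture 1 of 3 U87MG arrays exceeded its limit, and the log2 fold change was 4.12. COL18A1, the source of the anti-angiogenic fragment endostatin, has 1 probe at background on every array. The other averaged 9.72 ± 0.21 in U373 monoculture and 9.41 ± 0.18 in U373 co-culture and was at background in U87MG, at least 29.1-fold and 27.5-fold higher in U373.

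The remaining basement membrane genes differed less between the lines. COL4A5, the α5 chain of the kidney's filter, was 6.64, 6.78 and 6.95 in U373 co-culture, against 6.15, 6.02 and 6.0 in U87MG co-culture (log2 fold change 0.73, SE 0.25, adjusted p = 0.0199). In monoculture the groups overlapped, since U373 replicate 2, at 5.65, lay below all U87MG values of 5.76, 5.84 and 5.92. The log2 fold change of COL4A5 there was 0.62 (adjusted p = 0.0439), and the call was lost in a fit of only the 2 groups compared (adjusted p = 0.0652) and without any 1 of 8 of the 12 arrays (0.0526 to 0.213). The co-culture call was lost without U373 co-culture replicate 3 (0.0623) or U87MG co-culture replicate 2 (0.0527) or 3 (0.0535). COL4A6, with the α6 chain, had 1 of 3 probes above background. This probe averaged 6.69 ± 0.15 in U373 monoculture and 5.47 ± 0.34 in U87MG monoculture, a log2 fold change of 1.22 (SE 0.18, adjusted p = 3.34e-05), while the mean of the 3 probes differed by 0.47. COL7A1, the anchoring fibril collagen of skin, was bright in both lines. It measured 9.94, 10.15 and 10.36 in U373 co-culture, against 11.20, 10.73 and 10.82 in U87MG co-culture, and was lower in U373 (log2 fold change -0.77, SE 0.19, adjusted p = 0.00321). In monoculture the ranges overlapped (9.87, 10.21 and 10.52 in U373, against 10.81, 10.41 and 10.39 in U87MG), and COL7A1 did not pass (-0.33, adjusted p = 0.15; 0.0477 without U373 monoculture replicate 3). COL15A1, at background on all U373 arrays and above it on 3 of 6 U87MG arrays, passed as lower in U373 in both kinds of culture, and the monoculture call was lost without any 1 of 5 of the 6 monoculture arrays, U373 replicate 3 excepted (adjusted p 0.0537 to 0.122).

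**Figure D3:**
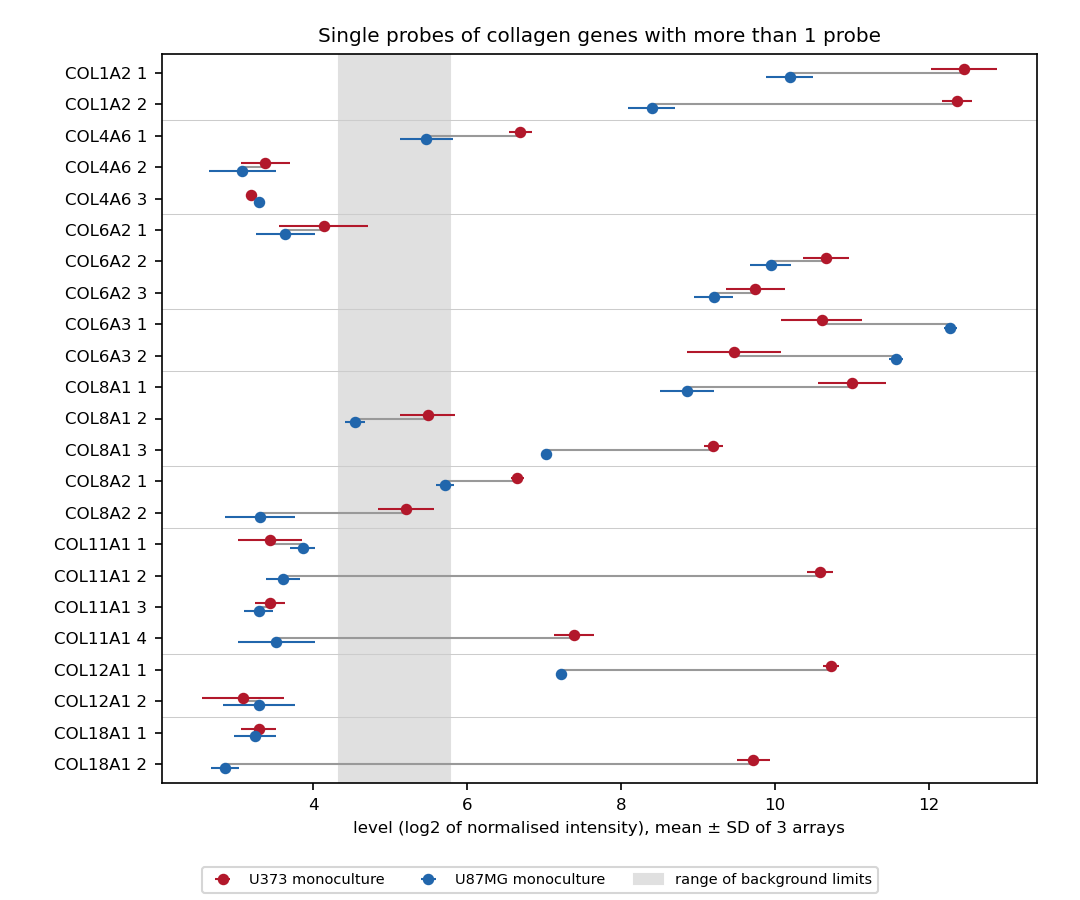
Mean level (log2 of normalised intensity) of each probe of the tested collagen genes with more than 1 probe, in U373 monoculture (red) and U87MG monoculture (blue), with bars of 1 SD over 3 arrays and a grey band for the range of background limits. Several genes hold probes at background in both lines beside a probe that differs, such as COL12A1 (10.73 in U373 against 7.22 in U87MG for the bright probe).

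The 3 genes of type VI collagen, whose chains join in a single trimer to form beaded microfibrils around cells, did not move together. COL6A1 was 11.99, 11.93 and 12.18 in U373 monoculture, against 10.41, 10.13 and 9.92 in U87MG monoculture, and was higher in U373 (log2 fold change 1.88, SE 0.15, adjusted p = 5.02e-08). COL6A3, which encodes the longest chain, ran the other way, at 9.59, 9.84 and 10.67 in U373 monoculture, against 11.96, 11.82 and 11.98 in U87MG monoculture. The log2 fold change of COL6A3 was -1.89 (SE 0.25, adjusted p = 1.27e-05), or 3.7-fold lower in U373, and both of its probes gave a lower level there (-1.67 and -2.10). In co-culture COL6A1 differed by 1.65 and COL6A3 by -1.28 (adjusted p = 0.000532). COL6A2 lies on chromosome 21, 93063 bases from COL6A1, and differed less than either. It was 7.77, 8.42 and 8.34 in U373 monoculture, against 7.64, 7.55 and 7.59 in U87MG monoculture (log2 fold change 0.58, SE 0.19, adjusted p = 0.0176), and the difference was 0.60 in co-culture (adjusted p = 0.0154). The lowest U373 array exceeded the highest U87MG array by little. Of the 3 COL6A2 probes averaged here, 1 was at background on all 12 arrays. The other 2, each tested alone with limma, differed by 0.72 (adjusted p = 0.0039) and 0.54 (adjusted p = 0.055, not passed) in monoculture. Both passed in co-culture (0.68 and 0.83). The monoculture call of COL6A2 was lost without U373 monoculture replicate 2 (adjusted p = 0.0771) or 3 (0.0612), and the co-culture call without U373 co-culture replicate 3 (0.0539) or U87MG co-culture replicate 1 (0.0866).

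Of the fibril-associated collagens, 3 of 4 tested genes were higher and 1 lower in U373 in both kinds of culture. Of all tested genes, 27.8% were higher and 31.4% lower in monoculture, and 25.5% and 31.9% in co-culture. For 3 of the 4 fibril-associated genes the filter fixed the direction. COL9A2 and COL14A1 passed it through U373 only and COL16A1 through U87MG only, which leaves COL12A1. COL9A2, a chain of type IX collagen best known from cartilage, was 8.25, 8.37 and 7.84 in U373 monoculture and at background in U87MG monoculture, at least 9.83-fold higher (adjusted p = 4.00e-12), although the partner genes COL9A1 and COL9A3 were at background everywhere. COL14A1, which binds the surface of type I fibrils, was 9.64, 9.67 and 9.20 in U373 monoculture, against 4.69, 4.71 and 4.48 in U87MG monoculture (log2 fold change 4.87, SE 0.23, adjusted p = 9.43e-11). The U87MG arrays were at or near the limit, with 1 of 3 above it. For COL12A1, a related fibril-associated collagen, the probe above background averaged 10.73 ± 0.11 in U373 monoculture and 7.22 ± 0.02 in U87MG monoculture, a log2 fold change of 3.50 (SE 0.18), which averaging with a probe at background reduced to 1.64.

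COL16A1, a fibril-associated collagen found near cell surfaces, was the reverse of these. It was at background on 5 of 6 U373 arrays, with 4.63, 4.54 and 4.95 in co-culture and 4.59, 5.23 and 5.03 in monoculture, against 8.76, 8.91 and 8.66 in U87MG co-culture and 8.88, 8.70 and 8.46 in U87MG monoculture. The fall in U373 was 3.73 on the log2 scale in monoculture and at least 13.4-fold in co-culture (adjusted p = 3.98e-11). No other collagen gene was so much lower in U373. Both chains of type VIII collagen, which forms a lattice beneath the endothelium of the cornea and of vessels, were higher in U373. COL8A1 was 8.73, 8.60 and 8.36 in U373 monoculture, against 6.90, 6.80 and 6.72 in U87MG monoculture (log2 fold change 1.76, SE 0.22, adjusted p = 5.57e-06). COL8A2 was 5.70, 6.12 and 5.96 in U373 monoculture, against 4.19, 4.72 and 4.63 in U87MG monoculture (log2 fold change 1.42, SE 0.17, adjusted p = 3.15e-06). The COL8A1 values are means of 3 probes, which differed by 2.14, 0.95 and 2.18 in monoculture when tested alone. The COL8A2 values are means of 2 probes. The probe above background on all 12 arrays differed by 0.94 in monoculture (SE 0.15), and the other was above background on 2 of the 12 arrays.

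COL13A1, a collagen that spans the plasma membrane and sits at sites of cell adhesion and at neuromuscular junctions, was lower in U373 in both kinds of culture. It measured 6.32, 6.33 and 6.89 in U373 monoculture, against 8.60, 8.89 and 8.51 in U87MG monoculture (log2 fold change -2.15, SE 0.18, adjusted p = 4.56e-08). In co-culture it measured 7.58, 7.65 and 7.51 in U373, against 8.53, 8.64 and 8.23 in U87MG, and the log2 fold change was -0.88 (SE 0.18, adjusted p = 0.000508). The groups were apart in both, with a narrower gap in co-culture.

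The second comparison asked whether sharing medium with the other line changed collagen expression. In U373 cells, 1 of 25 collagen genes passed, COL13A1, which was higher in co-culture, against 0.0851% of all tested genes higher (9 genes), 0.0284% lower (3 genes) and 0.114% in either direction. The co-culture values of 7.58, 7.65 and 7.51 all lay above the monoculture values of 6.32, 6.33 and 6.89, a separation seen in 6.42% of all tested genes. Its log2 fold change was 1.07 (SE 0.18, adjusted p = 0.0322), or 2.09-fold. This call was close to the threshold: it was lost without U373 co-culture replicate 2 (adjusted p = 0.127) or 3 (0.0541), without U373 monoculture replicate 1 (0.138) or 2 (0.121), and without U87MG monoculture replicate 1 (0.0651). It was also lost with no filter on dim genes (0.0764) and in a fit of the U373 arrays alone (0.228). The fold change stayed between 0.97 and 1.25 in all these settings. Without U373 monoculture replicate 3, the one highest in COL13A1, the adjusted p was 0.00545.

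**Figure D4:**
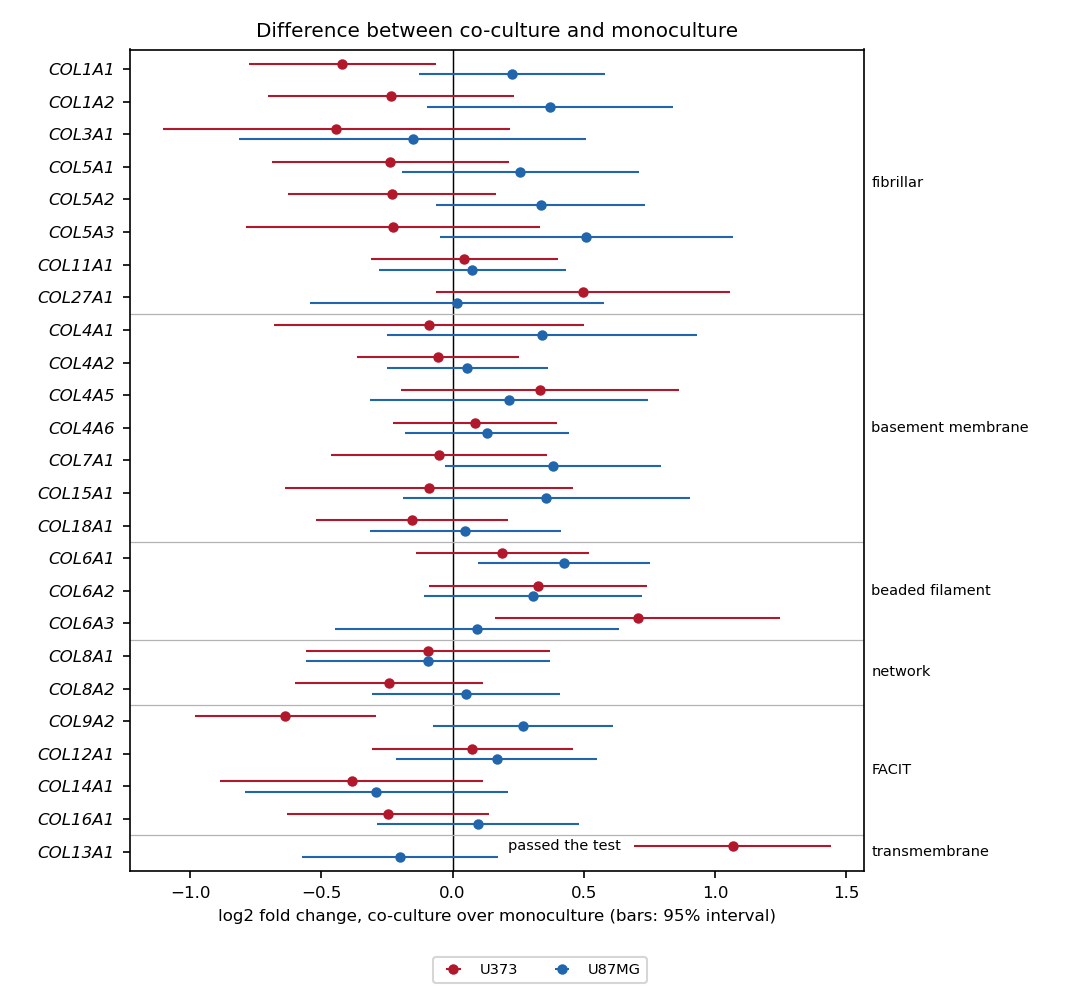
Log2 fold change of co-culture over monoculture for the 25 tested collagen genes in U373 (red) and U87MG (blue), with 95% intervals. The point marked as having passed is COL13A1 in U373, at 1.07; no other point passed.

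The other 24 genes did not pass in U373, where the log2 fold changes of the 25 genes ran from -0.64 to 1.07 and their 95% intervals from -1.10 to 1.44. Without adjustment, 4 collagen genes had a p under 0.05, as did 1011 of all 10572 tested genes. COL9A2 was 7.65, 7.46 and 7.43 in U373 co-culture, against 8.25, 8.37 and 7.84 in U373 monoculture (log2 fold change -0.64, SE 0.16, adjusted p = 0.171). COL1A1 was 12.15, 12.35 and 12.23 in co-culture, against 12.45, 12.68 and 12.85 in monoculture (-0.42, SE 0.17, adjusted p = 0.436). The U373 groups of both genes did not overlap, as in COL1A2 and COL5A1, which makes 4 collagen genes with all co-culture arrays below all monoculture arrays, against 5.4% of all tested genes. COL6A3 was 10.19, 10.97 and 11.05 in U373 co-culture, against 9.59, 9.84 and 10.67 in U373 monoculture, where the groups overlapped (0.70, SE 0.25, adjusted p = 0.378). Of the 8 fibrillar genes 6 had a fold change under 0, as did 4794 of all 10572 tested genes. The median of the 8 was -0.23, against 0.02 over all tested genes, and none of the 8 passed.

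In U87MG cells no collagen gene passed, nor did any other tested gene with limma (0.0% of 10572), while 742 genes and 1 collagen gene had an unadjusted p under 0.05. That gene was COL6A1, with 10.59, 10.67 and 10.47 in U87MG co-culture, against 10.41, 10.13 and 9.92 in U87MG monoculture (log2 fold change 0.42, SE 0.15, adjusted p = 0.680). Fold changes of the 25 genes ran from -0.29 to 0.51, with 95% intervals between -0.81 and 1.07. The fold change of 0.51 and the bound of 1.07 were those of COL5A3, and the bound of -0.81 was that of COL3A1. Both genes were at background on all U87MG arrays. The fold change of -0.29 was that of COL14A1, above background on 2 of the 6 U87MG arrays. The U87MG groups did not overlap in COL4A5 and COL6A1, higher in co-culture, against 10.6% of all tested genes, and in COL14A1, lower in co-culture, against 3.77%. Of the 8 fibrillar genes, 5 were above background on at least 3 of the 6 U87MG arrays. All 5 had a fold change over 0, as did 6318 of the 9803 tested genes of this kind. The median was 0.26 for the 5 genes, against 0.07 for the 9803. COL13A1 was 8.53, 8.64 and 8.23 in U87MG co-culture, against 8.60, 8.89 and 8.51 in U87MG monoculture (-0.20, SE 0.18, adjusted p = 0.819).

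**Figure D5:**
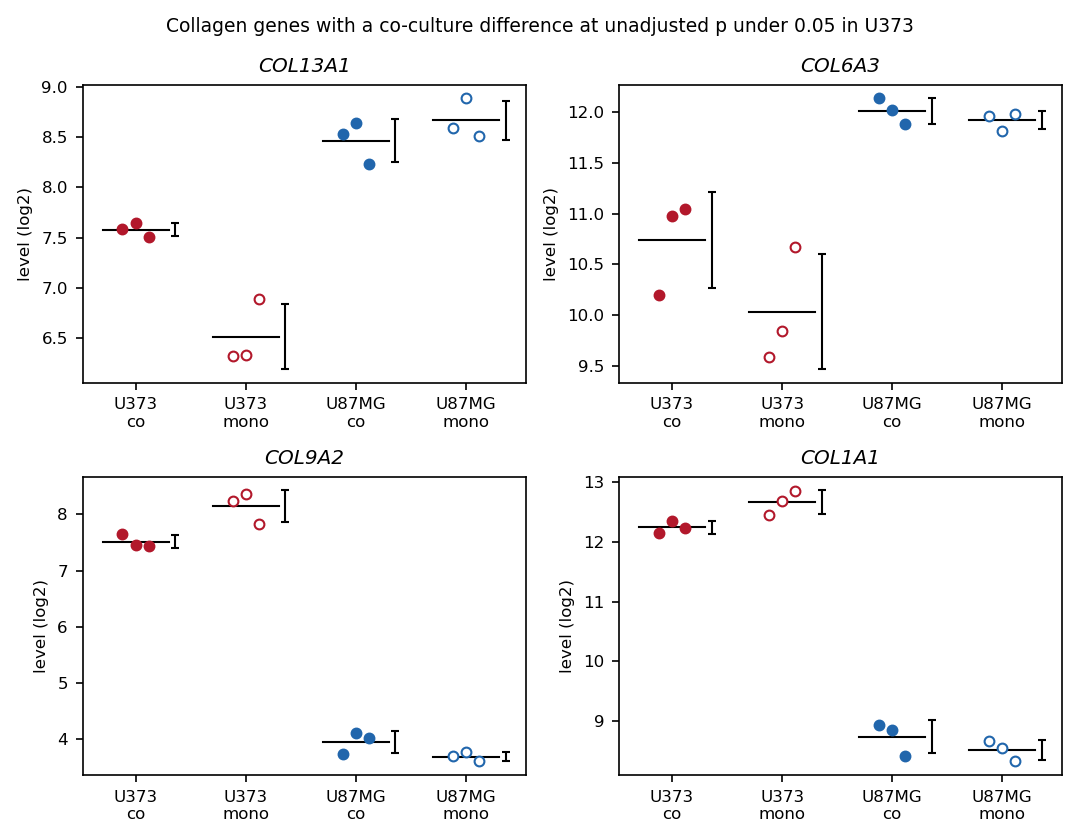
Level (log2 of normalised intensity) on each array of the 4 collagen genes with an unadjusted p under 0.05 for co-culture in U373, by group, with the mean as a line and 1 SD as a bar (3 arrays per group). Level axes differ between panels and do not start at 0. COL13A1 is at 7.51 to 7.65 in U373 co-culture and at 6.32 to 6.89 in U373 monoculture, and in all 4 genes the U87MG groups overlap.

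The effect of co-culture was then compared between the lines by the difference of the log2 fold changes, U373 minus U87MG. No collagen gene passed, and 1 of all tested genes did (0.00946%). For COL13A1 the difference was 1.27 (SE 0.25, adjusted p = 0.275), with the smallest unadjusted p of the family, 0.00013. COL9A2 had -0.91 (SE 0.23, adjusted p = 0.439) and COL1A1 had -0.65 (SE 0.24, adjusted p = 0.697). With COL5A2, 4 collagen genes had an unadjusted p under 0.05, against 664 genes in all. The rise of COL13A1 in U373 was thus not shown to differ from the fold change in U87MG.

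The genes that make and handle collagen were counted beside it, and their counts stand against 27.8% of all tested genes higher and 31.4% lower in U373 monoculture. Among 18 genes of collagen folding and modification, 15 were tested, and 8 were higher and 4 lower. SERPINH1, the collagen chaperone HSP47, was 10.84, 11.15 and 11.11 in U373 monoculture, against 8.995, 8.58 and 8.95 in U87MG monoculture (log2 fold change 2.19, adjusted p = 8.87e-09). P3H2 and P3H1, which hydroxylate prolines, differed by 3.94 and 1.95, while P4HA2, a subunit of the enzyme that stabilises the helix, differed by -1.05. Of 13 genes of extracellular maturation 8 were tested, 4 higher and 3 lower, and 2 of the 4 passed the filter through U373 only. BMP1, the protease that trims procollagen, differed by 2.92. The cross-linking enzyme LOXL4 was at background in U87MG and at least 32.3-fold higher in U373. PCOLCE and PCOLCE2, which enhance the trimming by BMP1, were lower in U373, with log2 fold changes of -2.97 and -3.43, and PCOLCE2 was above background on 1 of 3 U373 monoculture arrays.

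Of 10 tested collagen receptors, 3 were higher and 4 lower in U373 monoculture, near the shares of all tested genes (27.8% and 31.4%). ITGA1 passed the filter through U373 only, and ITGA10 and OSCAR through U87MG only, which fixed their direction. Among the 7 receptors that passed it through both lines, 2 were higher and 3 lower. The integrin chain ITGA1, which favours type IV collagen, was at background in U87MG monoculture and at least 3.26-fold higher in U373, and the endocytic receptor MRC2 differed by 1.48. ITGA2, the integrin chain that favours type I collagen, was 6.26, 5.48 and 6.63 in U373 monoculture, against 9.10, 9.02 and 9.06 in U87MG monoculture (log2 fold change -2.93, adjusted p = 1.42e-07), and ITGA10, at background in U373, was at least 3.82-fold lower there. Of 4 tested collagen-degrading proteases, 3 were lower and 1 higher in U373 monoculture. CTSK, a lysosomal protease able to cut the triple helix, was 5.83, 5.65 and 5.81 in U373 monoculture, against 9.99, 9.82 and 9.68 in U87MG monoculture (-4.06, adjusted p = 1.96e-10), and above background on 2 of the 3 U373 arrays. MMP2 differed by -2.73 and MMP14 by -0.61, and FAP was higher in U373 by 2.66. Of 9 collagen genes outside the list 1 was tested, COL24A1, a fibrillar type, which passed the filter through U373 only. It was above background on 2 of 3 U373 monoculture arrays and on none of U87MG, and was at least 1.83-fold higher in U373 (adjusted p = 8.31e-05). No gene of these lists passed in either co-culture comparison.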

How the data were processed

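RNA of 12 cultures was measured on Illumina HumanWG-6 v3 BeadChips. The authors read intensities with BeadStudio and deposited values after variance stabilisation normalisation, on a natural log scale, which was checked against the deposited non-normalised intensities (slope 0.9943 to 0.9976 for signals over 1000). None of the 24 columns of signals and detection values in that second table names a sample, so they served for this check only, matched by ranks. To give log2 values, the deposited natural log values were divided by ln 2.

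Probes were named through the platform annotation, with RefSeq symbols (GRCh38.p14). Of 48803 probes, 27578 had 1 gene, 13 had several and 21212 had none; the last 2 kinds were left out. Probe values were averaged per gene, as in the methods of the study. The background limit was the mode of an array plus 3 SD, estimated from values under the mode, and genes with a probe above it on at least 3 of 12 arrays were tested (10572 of 18665). For a group with all 3 arrays at background, the fold is a lower bound against the lowest value above the limit (or the own value, if higher).

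Tests used limma 3.58.1 in R 4.3.3 (lmFit, contrasts.fit, eBayes; statmod 1.5.0) with 4 group means and no covariates, two-sided, with 14.9 degrees of freedom and Benjamini-Hochberg adjustment over all tested genes; genes with an adjusted p under 0.05 were called. The code was also tested on simulated data. Values of single probes come from a fit to all probes above background, added after the values were seen. The number of arrays limits the precision. The labels give no slide, so slides were not tested as a batch. The rank product of the study was not run. Same-numbered arrays were compared for pairing: deviations correlated at 0.1133 to 0.2053 between the monocultures, 0.1301 to 0.1653 between the co-cultures and 0.128 to 0.1777 between the U87MG groups, above 0.1 in every pair, and at -0.102 to 0.5578 between the U373 groups. Numbers come from the sample titles.

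Collagen genes with values are those that passed in any comparison with all 3 arrays of the higher group above background, and those above background on all 12 arrays; of other lists at most 4 genes are named, by the size of their fold change in monoculture. Members and lists were chosen with earlier results of these data known. Promoter stretches come from the RefSeq table, which holds 26 of the 35 genes. Python 3.11.15 was used for tables (pandas 2.3.3 and numpy 2.4.6) and for figures (matplotlib 3.10.9).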

Additional observations from a re-analysis of the deposited data

How the results depend on the processing

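The counts of collagen genes that differed between the lines stayed within 1.5 times under every alternative, and no collagen result reversed. In U373 co-culture the count of 1 became 0 with no filter on dim genes, where more genes were adjusted over, and with only the 2 groups compared, where the spread rests on fewer arrays. Leaving out each array in turn gave 20 to 23 collagen genes between the monocultures, 22 to 25 between the co-cultures, 0 to 1 for co-culture in U373, and 0 for co-culture in U87MG and for the difference of the effects. The calls over all genes for co-culture in U373 ran from 3 to 159 in these fits (159 without U373 co-culture replicate 1), against 12 with all arrays, and were 3 with no filter or only 2 groups, 21 with a trended and robust variance and 23 with the block; the cause was not tested. With the replicate number as a block, the counts were 23, 25, 1, 0 and 0 in the same order, and the block changed no call of a collagen gene. Single calls were lost in some of these fits for COL4A5, COL6A2 and COL15A1 between the monocultures, and for COL4A5, COL4A6, COL6A2 and COL27A1 between the co-cultures (adjusted p up to 0.213 over these fits). For COL4A6 this was without U373 co-culture replicate 2 (0.0748) or U87MG co-culture replicate 3 (0.11), and with no filter (0.0513); for COL6A2 between the monocultures also without U87MG monoculture replicate 2 (0.0501). With no filter, COL21A1, a gene at background on every array, also passed as higher in U373 in both kinds of culture. A background limit of 5 SD left 22 collagen genes tested. The planned normalisation with limma's neqc was not run, since it needs signals in columns named for a sample. Dim genes are limited by signal over background: their fold changes are lower bounds or understated.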
